A study of Mus musculus with 16 samples.

Results

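Padi2, Vash2, Rnf157 and Tmem255a are 4 of the 19938 genes measured in bone marrow of leukemic mice and in normal B cell precursors. They were chosen by their array levels, as genes lower in Bank1+/- Pax5+/- leukemia than in Pax5+/- leukemia. Among all genes ordered by that difference, Padi2 stood at place 5 from the lowest, Tmem255a at place 6, Vash2 at place 18 and Rnf157 at place 29. Each was read by 1 probe set that names it alone. The difference between the leukemia groups is therefore what selected these genes, and for them it is described below without a test.

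The series profiled mouse RNA on 16 arrays to ask whether Bank1 restrains leukemia of B cell precursors. There were 6 arrays of leukemic total bone marrow from mice heterozygous for both Bank1 and Pax5 (Bank1/Pax5 leukemia). A further 6 came from leukemic total bone marrow of mice heterozygous for Pax5 alone (Pax5 leukemia), so that both leukemia groups lack a Pax5 allele. The remaining 4 arrays came from pro-B and pre-B cells of wild-type (WT) marrow. The mice were kept in a conventional facility with exposure to common pathogens, no treatment was given, and the labels used here state no ages. The WT arrays also carry a cell type label of leukemic cells, against their title, tissue and genotype. The design text counts 3 WT mice, against 4 WT arrays labelled as separate replicates, which were used as 4.

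The leukemic samples are whole marrow and the WT samples a cell fraction. Markers of B cell precursors (13 of 14 measured) had median log2 levels per array of 7.58 to 11.76 in Bank1/Pax5 leukemia, 7.60 to 12.28 in Pax5 leukemia, and 12.52 to 12.63 for WT. Pax5 itself was under 9 on 3 leukemia arrays, namely Bank1/Pax5 arrays 1 and 5 and Pax5 array 3, which stand apart in some results below. Bank1 averaged 8.63 ± 0.78 (SD, n = 6) across Bank1/Pax5 arrays against 10.18 ± 0.79 (SD, n = 6) across Pax5 arrays (adjusted p = 0.0265 with limma, called in 19 of 27 other settings). The 3 measured Y-linked genes were low on Bank1/Pax5 arrays 3 and 5, on Pax5 array 2 and on all 4 WT arrays. The sex pattern therefore goes with the WT group. In whole marrow, fewer cells of a type and less RNA per cell cannot be told apart.

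Padi2 and Vash2 encode enzymes that change amino acids of finished proteins. Padi2 is a peptidylarginine deiminase, which turns arginine into citrulline, on histones among other proteins. Vash2, vasohibin 2, removes the last tyrosine of alpha-tubulin together with its partner Svbp, and the tubulin tyrosine ligase Ttl puts that tyrosine back. Rnf157 is a RING finger ubiquitin ligase, related to Mgrn1, that has been studied mainly in neurons and in cancer cells. Tmem255a is a membrane protein with no well established function.

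The 250 bases before an annotated start are shown for each gene, because they are what a reader would set beside genes picked for moving in the same direction. They come from RefSeq (build GRCm38.p6), where all 4 genes had a window, and are written 5′ to 3′ on the gene's strand. Capitals mark CCAAT boxes (CCAAT) and GC boxes (GGGCGG), searched on both strands.
Padi2, plus strand, chr4:140906110-140906359: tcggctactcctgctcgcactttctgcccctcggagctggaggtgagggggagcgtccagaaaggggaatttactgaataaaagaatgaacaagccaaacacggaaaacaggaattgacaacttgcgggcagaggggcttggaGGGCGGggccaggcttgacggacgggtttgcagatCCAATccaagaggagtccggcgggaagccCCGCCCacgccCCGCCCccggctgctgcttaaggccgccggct
Vash2, minus strand, chr1:190979297-190979546: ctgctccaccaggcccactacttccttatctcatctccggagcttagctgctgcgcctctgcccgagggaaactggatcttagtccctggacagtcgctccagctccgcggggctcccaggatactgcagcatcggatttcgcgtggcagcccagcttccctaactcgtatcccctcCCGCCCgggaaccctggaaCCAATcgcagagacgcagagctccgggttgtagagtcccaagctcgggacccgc
Rnf157, minus strand, chr11:116413033-116413282: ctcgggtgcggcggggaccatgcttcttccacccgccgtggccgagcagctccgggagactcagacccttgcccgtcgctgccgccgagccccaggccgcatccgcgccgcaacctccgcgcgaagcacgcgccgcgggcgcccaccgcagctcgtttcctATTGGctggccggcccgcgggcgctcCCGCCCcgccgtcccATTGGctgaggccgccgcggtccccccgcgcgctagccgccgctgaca
Tmem255a, minus strand, chrX:38252482-38252731: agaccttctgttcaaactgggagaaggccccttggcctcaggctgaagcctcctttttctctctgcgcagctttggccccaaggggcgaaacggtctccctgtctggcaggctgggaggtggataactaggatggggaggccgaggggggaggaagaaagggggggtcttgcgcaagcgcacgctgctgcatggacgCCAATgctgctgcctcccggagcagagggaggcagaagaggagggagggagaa

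Each of these windows held a CCAAT box, which was present in 33.8% of the 32851 mouse promoter windows of the same length. A GC box was found in those of Padi2, Vash2 and Rnf157 and not in that of Tmem255a, against 32.7% of all windows. The letters CCCNNGGG, the core recognised by the B lineage factor EBF1, were found in those of Vash2, Rnf157 and Tmem255a and not in that of Padi2, against 11.8%. No window held an E-box (CANNTG, in 66.2% of all windows), a TATA box (TATAAA, 12.4%) or the ETS letters CCGGAA (12.03%). None of the matches overlapped a match of another motif. The GC content was 61.6% for Padi2, 62.8% for Vash2, 77.2% for Rnf157 and 62.4% for Tmem255a, with a median of 52.4% over all windows. A second Vash2 start had a window with 2 GC boxes, the EBF1 letters, an E-box and no CCAAT box. These are matches of letters, and they do not show binding.

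Padi2 was low in Bank1/Pax5 leukemia in comparison with both other groups. Its log2 level ran from 7.22 to 8.33 (median 7.59) in Bank1/Pax5 leukemia and from 7.78 to 11.03 (median 9.87) in Pax5 leukemia. The WT arrays were at 9.27, 8.89, 8.98 and 8.88. All 6 Bank1/Pax5 arrays lay below every WT array, whereas Pax5 leukemias lay on both sides of WT, with 4 above and 2 below. The only Pax5 leukemia inside the Bank1/Pax5 range was array 5, at 7.78. It averaged 7.70 ± 0.45 (SD, n = 6) across Bank1/Pax5 arrays, 9.62 ± 1.17 (SD, n = 6) across Pax5 arrays, and 9.01 ± 0.18 (SD, n = 4) across WT arrays. The difference between the leukemia groups was -1.92 log2 (SE 0.43), a 3.79-fold lower mean. Padi2 thus had its widest spread among Pax5 leukemias, where the range covered 3.25 log2, against 1.11 in Bank1/Pax5 leukemia and 0.38 in WT cells.

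Vash2 was a dim gene in WT cells and in most Bank1/Pax5 leukemias. Its log2 level ran from 5.96 to 7.80 (median 6.22) in Bank1/Pax5 leukemia and from 6.48 to 8.97 (median 8.20) in Pax5 leukemia, and was 6.11, 5.79, 6.04 and 6.12 on the WT arrays. The median of all named probe sets was 7.01, so that the size of a difference against a group near 6 is not well bounded. Every Pax5 leukemia lay above every WT array, while 4 of 6 Bank1/Pax5 leukemias did. Array 2 of Bank1/Pax5 leukemia, at 7.80, stood far above the other 5 (5.96 to 6.55), and array 3 of Pax5 leukemia had the lowest level of its group. It averaged 6.47 ± 0.69 (SD, n = 6) across Bank1/Pax5 arrays, 7.97 ± 0.92 (SD, n = 6) across Pax5 arrays, and 6.02 ± 0.15 (SD, n = 4) across WT arrays. Between the leukemia groups the difference was -1.50 log2 (SE 0.39), or 2.83-fold lower.

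Rnf157 was lower on every Bank1/Pax5 array than on any Pax5 leukemia array. Its log2 level ran from 8.14 to 9.64 (median 8.68) in Bank1/Pax5 leukemia and from 9.70 to 10.31 (median 10.05) in Pax5 leukemia, against 9.49, 9.19, 9.56 and 9.52 on the WT arrays. It was the only member whose leukemia groups did not overlap, and 1.87% of all genes were likewise below every Pax5 leukemia array in Bank1/Pax5 leukemia; the choice of the genes used this contrast. The WT arrays lay between the groups: all 6 Pax5 leukemias were above every WT array, and 5 of 6 Bank1/Pax5 leukemias were below. Array 2 was the exception, at 9.64. It averaged 8.74 ± 0.58 (SD, n = 6) across Bank1/Pax5 arrays, 10.03 ± 0.27 (SD, n = 6) across Pax5 arrays, and 9.44 ± 0.17 (SD, n = 4) across WT arrays, and the leukemia groups differed by -1.29 log2 (SE 0.22), or 2.45-fold.

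Tmem255a had a mean close to that of WT in Bank1/Pax5 leukemia, with 2 arrays above and 3 below every WT array. Its level was above every WT array in 5 of 6 Pax5 leukemias. Its log2 level ran from 7.07 to 8.75 (median 7.72) in Bank1/Pax5 leukemia and from 6.99 to 10.94 (median 10.15) in Pax5 leukemia, and was 7.83, 8.04, 7.83 and 7.77 on the WT arrays. Array 3 of Pax5 leukemia had the lowest level of all 16 arrays, 6.99, while the other 5 of its group lay at 9.59 to 10.94. It averaged 7.86 ± 0.60 (SD, n = 6) across Bank1/Pax5 arrays, 9.74 ± 1.42 (SD, n = 6) across Pax5 arrays, and 7.87 ± 0.12 (SD, n = 4) across WT arrays. The leukemia groups differed by -1.88 log2 (SE 0.52), or 3.67-fold, and by -2.42 without array 3 of Pax5 leukemia. The gene lies on the X chromosome, and in each leukemia group its highest level was on an array with low Y-linked genes, at 8.75 on array 3 of Bank1/Pax5 leukemia and 10.94 on array 2 of Pax5 leukemia. The other leukemia array with low Y-linked genes, array 5 of Bank1/Pax5 leukemia, was at 7.81, below array 2 of its group at 8.34. The part of sex in this was not tested within 1 sex. With the Y-linked level as a covariate the difference was -2.08.

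**Figure D1:**
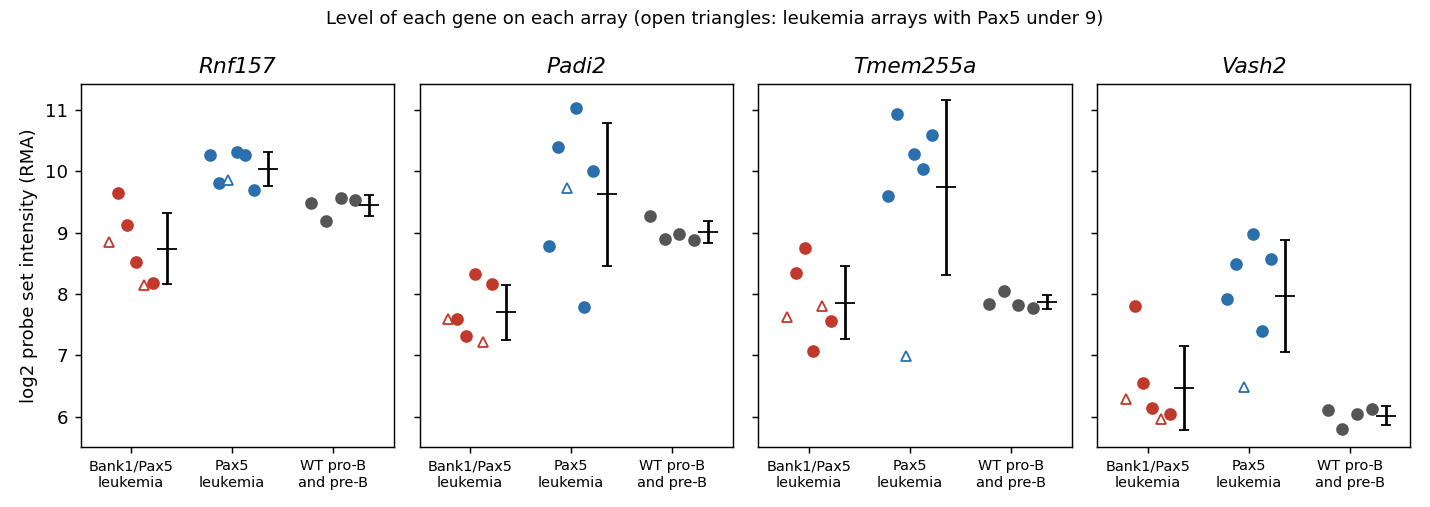
Log2 probe set intensity of Rnf157, Padi2, Tmem255a and Vash2 (vertical axis) on each array of Bank1/Pax5 leukemia, Pax5 leukemia and WT precursors, with the mean and SD of each group in black; open triangles are the 3 leukemia arrays with Pax5 under 9. The leukemia groups separate fully for Rnf157, with 9.64 as the highest Bank1/Pax5 and 9.70 as the lowest Pax5 array, and overlap in the other 3 genes.

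Set against WT precursors, the estimates of the 4 genes differed, although all were picked for the same direction between the leukemias. Differences between the genes were not tested. Both comparisons with WT share the WT arrays and the leukemia arrays that chose the genes, so the values are given side by side as a description. For Padi2 the log2 difference from WT was -1.31 (SE 0.48) in Bank1/Pax5 leukemia and 0.62 (SE 0.48) in Pax5 leukemia. For Rnf157 it was -0.70 (SE 0.25) in Bank1/Pax5 leukemia and 0.59 (SE 0.25) in Pax5 leukemia. In these estimates the leukemia groups lay on opposite sides of WT. For Rnf157 the Bank1/Pax5 value was -0.05 with the mean of other-cell markers as a covariate. For Padi2 the Pax5 leukemia value was 0.33 without array 4 and 0.98 without array 5 of that group.

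For Tmem255a the difference from WT was -0.01 (SE 0.58) in Bank1/Pax5 leukemia and 1.87 (SE 0.58) in Pax5 leukemia. For Vash2 it was 0.45 (SE 0.44) in Bank1/Pax5 leukemia and 1.95 (SE 0.44) in Pax5 leukemia. The Pax5 leukemia value was the larger for all 4 genes, which their choice as lower in Bank1/Pax5 leukemia fixed in advance. The Vash2 value for Bank1/Pax5 leukemia was 0.18 without array 2 of that group, and 1.10 (SE 0.57) with the mean of other-cell markers as a covariate. The Tmem255a values with Y-linked genes as a covariate were 0.62 for Bank1/Pax5 leukemia and 2.71 for Pax5 leukemia. Of the 4 genes, 1 had no overlap between Bank1/Pax5 leukemia and WT arrays (Padi2), against 19.6% of all genes. Rnf157 and Vash2 had none between Pax5 leukemia and WT arrays, against 24.8% of all genes.

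The average of both leukemia groups, set against WT, is a comparison that the choice of genes did not use. Vash2 was higher in the leukemias by 1.20 log2 (SE 0.39, adjusted p = 0.0361, limma over all 19938 genes, 12 against 4 arrays), with 10 of 12 leukemia arrays above every WT array. It was the only 1 of the 4 genes called, where 24.4% of all genes were called in this comparison. Tmem255a was at 0.93 (SE 0.52, adjusted p = 0.210), Padi2 at -0.35 (SE 0.43, adjusted p = 0.579) and Rnf157 at -0.06 (SE 0.22, adjusted p = 0.876), and none of these passed. The 95% intervals were -0.19 to 2.04 for Tmem255a, -1.26 to 0.57 for Padi2 and -0.53 to 0.42 for Rnf157.

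The Vash2 call did not hold when any single WT array was left out (adjusted p from 0.0768 to 0.0938), or without array 2 or 6 of Pax5 leukemia (0.0522 and 0.0525). It also missed with Y-linked genes as a covariate (1.29, adjusted p = 0.115) and with replicate numbers as a block (1.31, adjusted p = 0.0579). Tmem255a passed without array 3 of Pax5 leukemia (1.20, adjusted p = 0.00566), where its level was 6.99. Sex differs between these groups, and so does the purity of the samples, and the part of either in the result cannot be told apart from leukemia.

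**Figure D2:**
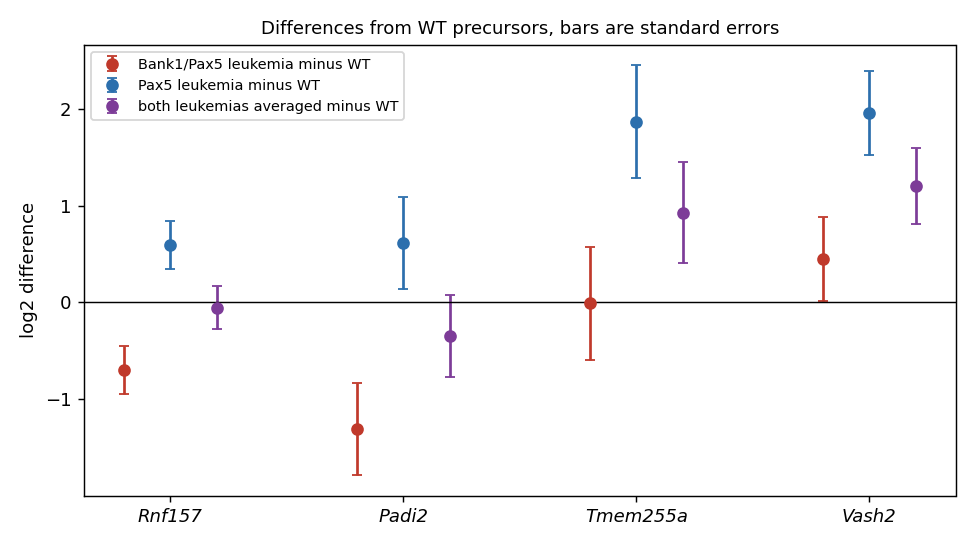
Log2 difference from WT precursors (vertical axis) for each gene, with Bank1/Pax5 leukemia in red, Pax5 leukemia in blue and their average in purple; bars are the model's standard errors. Bank1/Pax5 and Pax5 leukemia lie on opposite sides of 0 for Rnf157 and Padi2. For Tmem255a the values are -0.01 in Bank1/Pax5 and 1.87 in Pax5 leukemia, and for Vash2 0.45 and 1.95. That the Pax5 leukemia value is the higher for each gene follows from the choice of the genes.

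Within the leukemia groups, the correlations between pairs of the 4 genes ran from -0.22 to 0.77. Over 12 arrays they do not settle whether the genes vary together. Levels were centred on their group mean, which takes away the difference the choice used, and correlated over the 12 leukemia arrays, with 14 relations in all (permutation of arrays within groups, two-sided, adjusted over the 14). Vash2 and Tmem255a had the highest correlation of the 6 pairs (Pearson r = 0.77, p = 0.00997, adjusted p = 0.0932; Spearman rho = 0.69, p = 0.0199, adjusted p = 0.207). It was 0.66 without array 2 of Bank1/Pax5 leukemia and array 3 of Pax5 leukemia. Within Bank1/Pax5 leukemia r was 0.56 and within Pax5 leukemia 0.86, over 6 arrays each. Rnf157 and Vash2 went together within Bank1/Pax5 leukemia (r = 0.92) and not within Pax5 leukemia (r = 0.08), a difference that was not tested. None of the 14 relations passed the adjusted threshold.

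The remaining pairs ran from r = -0.22 for Rnf157 with Padi2 to 0.52 for Rnf157 with Vash2. Padi2 with Tmem255a had r = 0.04 (rho = 0.10), with -0.73 within Bank1/Pax5 leukemia and 0.16 within Pax5 leukemia. Padi2 with Pax5 had r = -0.04 (rho = -0.15), with 0.20 within Bank1/Pax5 leukemia and -0.13 within Pax5 leukemia. Bank1, which encodes the B cell adaptor that the genotype targets, had r of 0.06 with Padi2, 0.18 with Vash2, 0.19 with Rnf157 and 0.36 with Tmem255a. Its rho was 0.07 with Padi2, 0.15 with Vash2, 0.15 with Rnf157 and 0.58 with Tmem255a (permutation p = 0.0587, adjusted p = 0.207). For Bank1 with Tmem255a, r was 0.54 without array 6 of Bank1/Pax5 leukemia and array 1 of Pax5 leukemia. It was 0.64 without the arrays of low Pax5. Pax5, which commits cells to the B lineage, had r of 0.72 with Vash2 (permutation p = 0.0133, adjusted p = 0.0932; rho = 0.58, p = 0.0592, adjusted p = 0.207) and 0.70 with Tmem255a (permutation p = 0.0495, adjusted p = 0.209; rho = 0.48, p = 0.118, adjusted p = 0.275). For Tmem255a the correlation with Pax5 rested on single arrays, since r was 0.22 without array 1 of Bank1/Pax5 leukemia and array 3 of Pax5 leukemia. For Vash2 with Pax5, r was 0.54 without these arrays and 0.50 without all arrays of low Pax5. For Rnf157 with Pax5, r was 0.54 (permutation p = 0.0776, adjusted p = 0.217; rho = 0.69, p = 0.0302, adjusted p = 0.207), and 0.85 without the same 2 arrays. All arrays of a group share its genotype and differ in cell content, which the correlations do not separate.

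**Figure D3:**
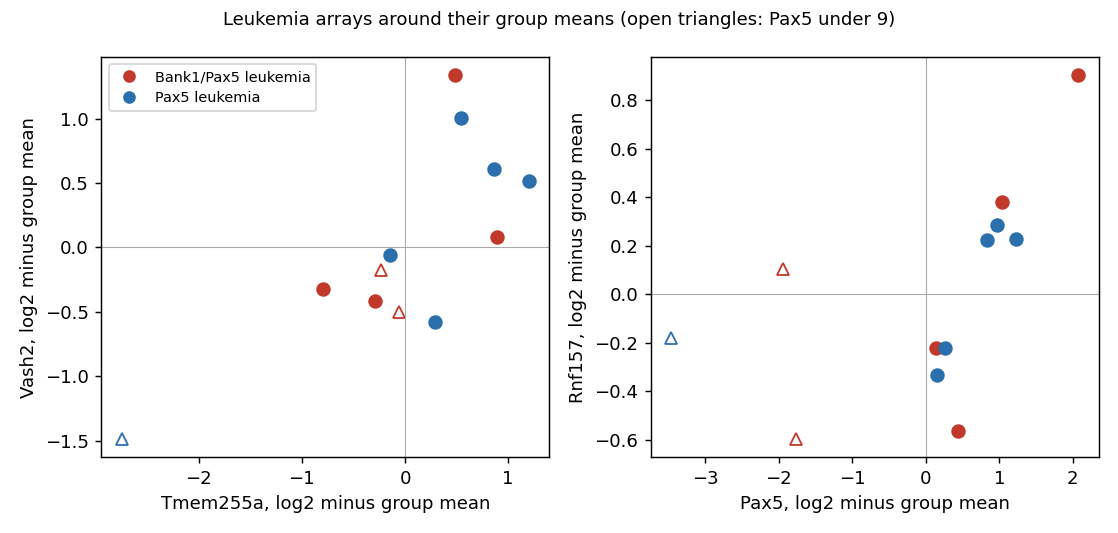
Leukemia arrays after subtracting the mean of their group, on log2 axes: Vash2 against Tmem255a on the left and Rnf157 against Pax5 on the right, with open triangles for the 3 arrays with Pax5 under 9. Array 3 of Pax5 leukemia is the far lower left point of the left panel, where r was 0.77 over 12 arrays and 0.66 without that array and array 2 of Bank1/Pax5 leukemia.

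The genes most like each member were taken from the same centred values among genes above the median level, as a description. They had the highest of 9968 correlations for each member (9969 for Vash2) over 12 arrays. Values of r picked as the highest of so many are high by that choice and were not tested. For Rnf157 these were Tars2 (r = 0.94), a mitochondrial threonyl-tRNA synthetase, Ankrd10 (0.94) and Rbmxl2 (0.93). For Vash2 they were Rhoh (0.93), a small GTPase of blood cells, Ablim1 (0.93), an actin-binding protein, and Csk (0.92), the kinase that restrains Src family kinases. For Tmem255a they were Tet3 (0.90), an enzyme of DNA demethylation, Tnfrsf13c (0.88), the receptor for the B cell survival factor BAFF, and Drosha (0.88), which cuts primary microRNAs. For Padi2 they were Tmem267 (0.85), Lgals1 (0.84), which encodes galectin-1, and Spns1 (0.77).

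These genes were picked by centred values, but for varying with members that were chosen by their difference between the leukemia groups. Their own calls in that comparison are therefore not independent of the choice. Of all genes, 6.7% were called there. In Bank1/Pax5 leukemia Tet3 fell by 0.64 log2 (SE 0.08, limma adjusted p = 0.00103), with 8.76 to 9.06 in Bank1/Pax5 leukemia and 9.18 to 9.70 in Pax5 leukemia, so that the groups did not overlap. Such a separation in this direction was found for 1.87% of all genes. Csk fell by 0.51 (SE 0.09, adjusted p = 0.00608), with levels of 10.33 to 10.88 in Bank1/Pax5 leukemia and 10.74 to 11.23 in Pax5 leukemia. With the mean of other-cell markers as a covariate Csk was at -0.37 (adjusted p = 0.111). Tnfrsf13c was at -1.12 (SE 0.30, adjusted p = 0.0382), a call that held in 10 of 27 other settings. The other 9 of the 12 genes were not called, Tmem267 among them (0.33, SE 0.40, adjusted p = 0.659). Against WT, the average of the leukemias was lower for Rhoh (-1.92, SE 0.27, adjusted p = 0.000123), Csk (-0.59, SE 0.09, adjusted p = 0.000323) and Tnfrsf13c (-1.17, SE 0.30, adjusted p = 0.0109). It was higher for Tmem267 (1.34, SE 0.40, adjusted p = 0.0245) and Lgals1 (0.50, SE 0.13, adjusted p = 0.0144). Leaving out 1 WT array, whichever it was, ended the call of Tmem267 (adjusted p between 0.0518 and 0.0726), as did Y-linked genes (0.0762) or other-cell markers (0.0577) as a covariate. Lgals1 missed the threshold with the same covariates (0.129 and 0.0916) and without WT array 4 (0.0513). Tnfrsf13c against WT missed the threshold with these covariates (0.149 and 0.107) and with the replicate block (0.0565).

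Among relatives and partners of the 4 genes, Ttl was the only 1 of 10 measured genes called between the leukemia groups. The share called over all genes was 6.7%. Ttl, which acts against vasohibin, had a log2 level of 6.49 to 7.18 (median 6.98) on Bank1/Pax5 arrays, 7.32 to 7.61 (median 7.45) on Pax5 arrays, and 7.04 to 7.32 on WT arrays. All Bank1/Pax5 arrays lay below every Pax5 leukemia array, as they did for 1.87% of all genes. The WT mean of 7.18 lay between the means of the leukemia groups. Ttl fell by 0.56 log2 in Bank1/Pax5 leukemia (SE 0.11, adjusted p = 0.00783, limma, 6 arrays each), and the call held in 26 of 27 other settings. Svbp, the partner of Vash2, averaged 8.22 ± 0.35 (SD, n = 6) across Bank1/Pax5 arrays against 8.29 ± 0.21 (SD, n = 6) across Pax5 arrays, a limma difference of -0.07 (SE 0.14, adjusted p = 0.801). Vash1 and Matcap1, which also act on this tyrosine, had no probe set under these symbols in the annotation used.

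The other 4 peptidylarginine deiminases were measured and none was called, up or down. Padi1, Padi3 and Padi6 were dim in every group, with means from 5.26 to 6.67, and differed between the leukemias by -0.09 to 0.05. Padi4, the neutrophil member of the family, ran from 5.72 to 8.75 in Bank1/Pax5 leukemia and from 5.58 to 7.74 in Pax5 leukemia (difference 0.57, SE 0.58, adjusted p = 0.591).

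Tmem255b, the relative of Tmem255a, was dim with means of 6.05 in both leukemia groups and 6.20 in WT cells. Mgrn1, the relative of Rnf157, was at -0.31 (SE 0.14, adjusted p = 0.211) between the leukemias. Fzr1, an activator of the ubiquitin ligase complex APC/C, was at -0.01 (SE 0.11, adjusted p = 0.973). Apbb1, an adaptor protein reported as a substrate of Rnf157 in neurons, was at 0.12 (SE 0.09, adjusted p = 0.469). Apbb1 fell by 0.51 log2 against WT in the average of the leukemias (SE 0.09, adjusted p = 0.000987) and was the only one of these 10 called there. The share called over all genes in that comparison was 24.4%.

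The 2 nearest measured genes on each side of each member were compared in the same fit, since the members lie on chromosomes 1, 4, 11 and X. Of the 16 neighbours none was called higher and 2 were called lower in Bank1/Pax5 leukemia than in Pax5 leukemia. Over all genes 6.7% were called, 340 higher and 996 lower. The median difference was -0.08 for the neighbours and 0.02 over all genes. Near Padi2, Atp13a2, a transporter of lysosomes, fell by 0.82 (SE 0.13, adjusted p = 0.00354), with 8.93 to 9.72 in Bank1/Pax5 leukemia and 9.88 to 10.43 in Pax5 leukemia. Sdhb, a subunit of respiratory complex II that lies between Padi2 and Atp13a2, was at -0.47 (SE 0.14, adjusted p = 0.0638), while Padi1 and Padi3 on the other side stayed dim. Beside Vash2, Angel2, an RNA-processing phosphatase, fell by 0.43 (SE 0.07, adjusted p = 0.00497), with 9.49 to 9.93 in Bank1/Pax5 leukemia and 10.05 to 10.35 in Pax5 leukemia. On its other side Flvcr1, a transporter of choline and heme, was at -0.34 (SE 0.12, adjusted p = 0.117). Flvcr1 rose by 0.94 against WT in the average of the leukemias (SE 0.12, adjusted p = 7.89e-05), whereas Angel2 fell by 0.27 log2 in the same comparison (SE 0.07, adjusted p = 0.0152, called in 24 of 26 other settings). Foxj1, a dim gene beside Rnf157, was at -0.19 there (SE 0.06, adjusted p = 0.0274, called in 19 of 25 other settings). No other neighbour was called against WT, where 24.4% of all genes were called. None of the 4 neighbours of Tmem255a or of Rnf157 was called between the leukemia groups.

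**Figure D4:**
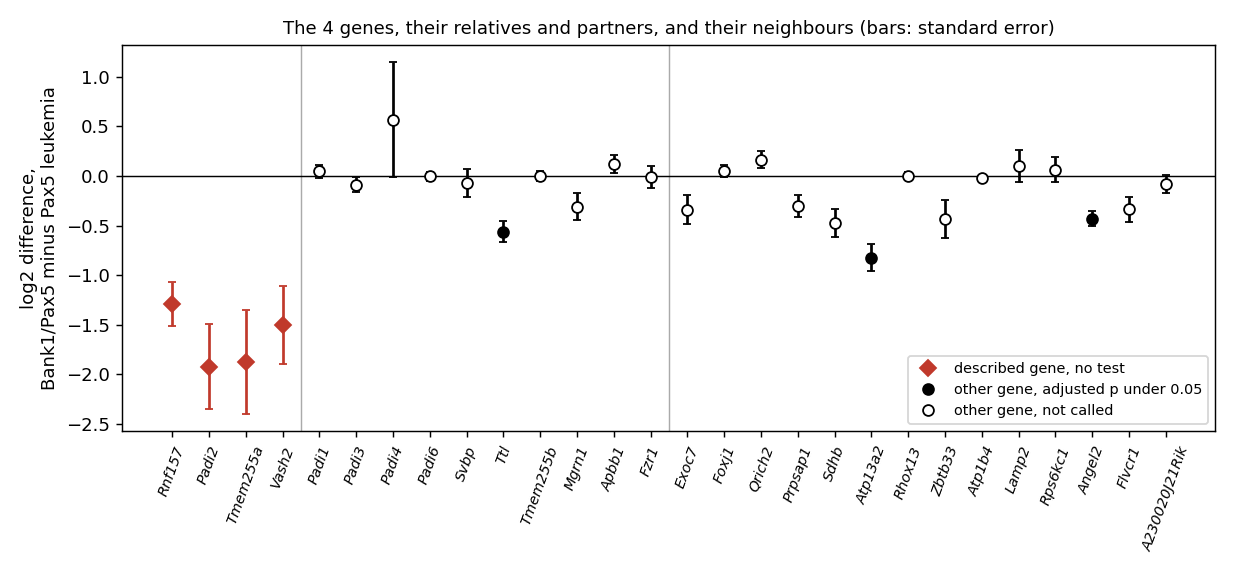
Log2 difference, Bank1/Pax5 minus Pax5 leukemia (vertical axis), for the 4 genes (red diamonds, not tested), for 10 relatives and partners and for the neighbouring genes; bars are standard errors and filled circles passed an adjusted p of 0.05. Ttl at -0.56, Atp13a2 at -0.82 and Angel2 at -0.43 are the called ones, and the 4 genes lie at -1.29 to -1.92.

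Cell type markers were set beside these results. The per-array median of B cell precursor markers had a group median of 10.07 in Bank1/Pax5 leukemia and 11.68 in Pax5 leukemia, and none of the 13 was called between them. The mean level of 8 marker lists of other cell types was 7.88 to 9.57 (median 8.78) on Bank1/Pax5 arrays, 7.35 to 8.40 (median 7.84) on Pax5 arrays, and 7.33 to 7.91 on WT arrays. Erythroid markers (9 of 10 measured) had median levels of 7.04 to 11.34 in Bank1/Pax5 leukemia and 6.46 to 7.35 in Pax5 leukemia, and none was called. NK cell markers (8 of 8 measured) were at 5.75 to 8.25 in Bank1/Pax5 leukemia and 5.50 to 5.68 in Pax5 leukemia, with 2 called higher. Neutrophil markers (14 of 14 measured) were at 7.54 to 12.26 in Bank1/Pax5 leukemia and 7.02 to 11.76 in Pax5 leukemia, and monocyte and macrophage markers (11 of 12 measured) at 8.17 to 10.96 in Bank1/Pax5 leukemia and 8.17 to 9.68 in Pax5 leukemia. Called higher were 0 neutrophil and 1 monocyte or macrophage marker. What part cell content has in the differences of the 4 genes was not tested beyond the covariate.

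With the mean of the other-cell lists as a covariate, the difference of Rnf157 between the leukemia groups was -0.79 in place of -1.29, and its difference of Bank1/Pax5 leukemia from WT was -0.05 in place of -0.70. That of Vash2 was -1.01 in place of -1.50, and that of Tmem255a -1.48 in place of -1.88. Padi2 was at -1.99 with the covariate and -1.92 without it. Ttl was at -0.62 (adjusted p = 0.0509), Atp13a2 at -0.69 (0.0674) and Angel2 at -0.29 (0.0911). With the 3 arrays of low Pax5 left out, the differences between the leukemia groups were -1.75 for Padi2, -1.63 for Vash2, -1.20 for Rnf157 and -2.35 for Tmem255a.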

How the data were processed

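The arrays measured total RNA that was extracted with Trizol and labelled with biotin, per the labels' protocols. Per the submitters' processing notes the authors used RMA through oligo, with no version stated. What they deposited is a log2 intensity per probe set, and it was not rescaled here. Array medians lay between 6.58 and 6.71. No source used here gives the array's genome build, so gene positions are named only by RefSeq order.

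Of 35556 probe sets, 21789 named 1 gene. Symbols were updated through gene records, and the probe set with the highest mean was kept per gene, which left 19938 genes. One model with 3 group means was fitted to all 16 arrays and all genes with limma 3.58.1 in R 4.3.3. A gene was called where its adjusted p (Benjamini-Hochberg across the 19938 genes, two-sided) was below 0.05, and SE is the moderated standard error. With equal group sizes, the average of the leukemia groups is estimated independently of their difference where spreads are alike. Spreads were not alike for Padi2, Tmem255a and Rnf157, so for these the independence is not exact. The labels call each array a biological replicate of a mouse, the design text counts 3 WT mice, and p-values measure the spread between these arrays, whose number limits the precision.

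The 4 genes, lists and settings were chosen with earlier results of these data known. Named genes were the 4, Bank1 and Pax5, listed relatives, 3 most alike genes and 2 neighbours a side for each, and the sex-linked genes. Correlations used 100000 permutations within groups. Marker lists covered B cell precursors, plasma cells, stroma and endothelium, NK and T cells, megakaryocytes, erythroid cells, neutrophils, and monocytes with macrophages. Median levels in Bank1/Pax5 and Pax5 leukemia were 10.2 and 9.16 for megakaryocyte, 6.94 and 5.99 for T cell, 8.80 and 8.74 for stromal and endothelial, and 8.63 and 8.34 for plasma cell markers. The fit was run on simulated data in which each gene had the same spread in all groups and genes varied independently. This does not cover the unlike spreads found here.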

Additional observations from a re-analysis of the deposited data

Results flagged for a closer look

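Dixon's test on each group of 6 or 4 arrays marked 9 of 126 groups for the 42 named genes, where chance marks about 1 in 20. Tmem255a on array 3 of Pax5 leukemia was at 6.99, with the others at 9.59 to 10.94. Pax5 was at 7.52 on the same array, with the others at 11.1 to 12.2, and Rps6kc1, a neighbour of Vash2, was at 7.81 there, with the others at 7.28 to 7.45. Vash2 on array 2 of Bank1/Pax5 leukemia was at 7.80, with the others at 5.96 to 6.55. Csk was at 10.88 on that array, with the others at 10.33 to 10.53. It was named for varying with Vash2 over these arrays, so its flag is not independent of that of Vash2. Other genes picked in this way are among the 42, which limits the comparison with the chance rate. On array 1 of Pax5 leukemia, Padi6 was at 5.41 (others 5.20 to 5.25), Fzr1 at 9.82 (others 10.06 to 10.15) and Exoc7 at 9.44 (others 8.72 to 8.96). Foxj1 on array 6 of Bank1/Pax5 leukemia was at 5.88 (others 6.04 to 6.14).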

How the results depend on the processing

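The lower level of all 4 genes in Bank1/Pax5 than in Pax5 leukemia kept its sign in the 27 other settings. These settings refit the arrays that chose the genes, so the kept sign is no separate support for the difference. Leave-one-out ranges were -2.29 to -1.64 for Padi2, -1.80 to -1.30 for Vash2, -1.47 to -1.17 for Rnf157 and -2.42 to -1.64 for Tmem255a. By more than the pooled SD within groups, only Rnf157 moved, to -0.79 between the leukemias and -0.0543 against WT with other-cell markers as a covariate. Against WT, the average for Rnf157 was near 0 and turned to 0.0105 (cyclic loess), 0.10 (replicate block), 0.0243 (arrays with Pax5 under 9 left out) and 0.34 (other-cell markers), with a leave-one-out range of -0.15 to 0.00397, where it turned to 0.00397 without array 5 and 0.000459 without array 6 of Bank1/Pax5 leukemia. Vash2 missed at 1.31 (replicate block) and 1.29 (Y-linked genes), and ran from 1.07 to 1.35 over leave-one-out fits. Tmem255a passed at 1.01 with array weights and 1.24 without the low-Pax5 arrays, and ran from 0.81 to 1.20 over leave-one-out fits (adjusted p from 0.00566 to 0.363). Padi2 ran from -0.49 to -0.16 over leave-one-out fits (-0.16 without Pax5 array 5) and was -0.16 with the replicate block. The cause of these changes was not tested.

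In the average against WT 4862 genes were called, 8969 with array weights, 3123 with the replicate block and 3163 (without WT array 4) to 5504 when leaving out 1 array. Higher calls were 38.9% of them, 50.4% after cyclic loess and 22.5% after median centring. Median centring moved the median of all genes to -0.11. Between the leukemias 1336 genes were called, 446 without WT in the fit, 696 with the replicate block, 659 without low-Pax5 arrays, 222 with other-cell markers and 725 (without Bank1/Pax5 array 5) to 1742 when leaving out 1 array, with 870 without Pax5 array 4 and 846 without Pax5 array 5. Higher calls were 25.4%, 43.4% after cyclic loess and 12.4% after median centring. Same-numbered arrays correlated from -0.379 to 0.321 in their deviations from group means. Arrays of different numbers were not compared, so these values cannot show whether the numbers pair the arrays. The block ended the call of Vash2.

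Correlations that moved were Padi2 with Tmem255a (-0.0385), with Vash2 (0.67) and with Bank1 (-0.0701), Rnf157 with Pax5 (0.85) and Tmem255a with Pax5 (0.22) without the 2 farthest arrays. Without low-Pax5 arrays r was 0.56 for Tmem255a with Vash2, 0.92 for Rnf157 with Pax5 and 0.19 for Tmem255a with Pax5. The 4 genes have no second probe set, so averaging probe sets changed none of their values.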
